A study of Drosophila melanogaster with 33 samples.

Results

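The 25 genes described here carry only a CG number as their symbol, the name given to predicted fly genes that no one had yet named. They are candidates for the earliest zygotic transcription of the Drosophila melanogaster embryo. They are 25 of the 7033 genes with such symbols and of the 16407 genes listed in all. They were chosen by measured values: a gene was taken when its poly(A) level was below 1 in the NC 7-9 input and its mean over the 2 NC 9-10 poly(A) eluates was 5 or more. Levels are parts in 1000000 (ppm) of a library's summed RPKM after the 1 added to every deposited value was taken off. Another 49 of the 9374 genes with other symbols passed the same numbers, led by bnk, sisA, dunk, Elba3 and l(1)sc, so the CG genes made up 33.8% of the 74 that passed.

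A fly embryo begins as a syncytium whose nuclei divide rapidly on RNA and protein loaded by the mother. The first zygotic genes, the minor wave, are transcribed during these short cycles with the help of the factor Zelda, and many known ones are short and lack introns. The major wave follows as the blastoderm slows its cycles and forms cells, and much of the maternal RNA is then cleared.

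The embryos were Oregon R, a laboratory wild-type strain, and all of them, inputs included, had been injected with 5-ethynyl uridine (5-EU), which is built into RNA made after the injection. Their form placed them in nuclear cycle (NC) 7-9, in NC 9-10, or at the syncytial or the cellular stage of the blastoderm. RNA carrying 5-EU was biotinylated and pulled down with streptavidin to give the eluate; the unbound RNA is the flow-through and the RNA before the pull-down is the input. Poly(A) libraries came from 7 preparations of 3 fractions: 1 at NC 7-9 and 2 at NC 9-10, all with 250 mM 5-EU, and at each blastoderm stage a first with 250 mM and a second with 50 mM. rRNA-depleted libraries came from 4 preparations with 250 mM, 1 at each stage. Their titles are those of the first poly(A) preparation of each stage, so both kinds of library may come from the same RNA. The labels do not say whether preparations were separate embryo collections, so every poly(A) p-value measures only the spread between these preparations. In the rRNA-depleted test the 2 blastoderm stages, with 1 preparation each, served as the replicates.

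Estimated reads ran from 1.93 M to 36.9 M a library (M, 1000000). Replicate libraries correlated across genes at r = 0.921 to 0.973, but the 2 NC 9-10 eluates stood apart on the genes described here, as given below. Markers fitted the labelled stages in part. A list of 9 maternally loaded genes such as bcd and osk summed to 6160 to 6675 ppm in the NC 7-9 and NC 9-10 eluates, all 9 of them present. Of a list of later blastoderm genes, wg, en and Ubx were at 0 in those 3 eluates, but slam had 108, 181 and 110 ppm. In the first NC 9-10 eluate odd had 7.47, prd 3.73, hh 0.336, ptc 0.289 and Antp 0.162 ppm. The second had odd at 0.0944 and ptc at 0.107 ppm, with prd, hh and Antp at 0. In the same 3 eluates 10 genes of older embryo tissues, such as the neuronal elav, summed to 0.701 to 2.59 ppm. The same 10 genes summed to 3.13 to 9.36 ppm in the syncytial and 28.4 to 123 ppm in the cellular blastoderm eluates.

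The 25 genes were small. All are annotated as protein-coding, and 21 of them (84%) have no intron, against 28 of 44 matched protein-coding genes (63.6%) among the other genes that passed the same numbers and 823 of 8142 (10.1%) among all protein-coding genes tested. Their exonic length ran from 325 to 1536 bases with a median of 641, against medians of 1245 bases in the other genes that passed and 2062 bases in all genes tested. The longest annotated protein ran from 78 residues for CG13465 to 448 for CG14317, with a median of 120, against 317 and 455. An intron is annotated in every transcript of CG34214 and CG4440 and in 1 of the 2 transcripts of CG8960 and CG16813. CG14317 is now listed as bard; the annotation gives the other 24 no name beyond the CG number.

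The genes were spread unevenly over the genome, with 11 on chromosome arm 3L, 7 on 2L, 4 on 2R, 2 on X and 1 on 3R (BDGP6.54 coordinates, the same assembly as dm6). On 3L, 6 of the 11 lie in 124 kb, from 4634436 to 4758708. In order they are CG13716, CG34266, CG15876, CG13713, CG13712 and CG13711. On 2L, CG14014 and CG18269 lie side by side between 5549709 and 5552756, and CG15480, CG16813 and CG16815 lie together between 13224620 and 13230549. CG14915 shares 440 bases with the antisense RNA asRNA:CR46264 and CG34214 shares 13 bases with ND-19. The strand setting of the counting is not given in the sources used here, so those 2 genes may share reads with their partners. Other genes lie within an intron of a longer gene. CG15876, CG13713, CG13712 and CG13711 lie in RhoGEF64C, CG13716 and CG34266 in axo, CG14427 in CG12541 and CG13000 in RhoGAP15B. Whether intron RNA of those longer genes added reads to them was not tested.

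**Figure D1:**
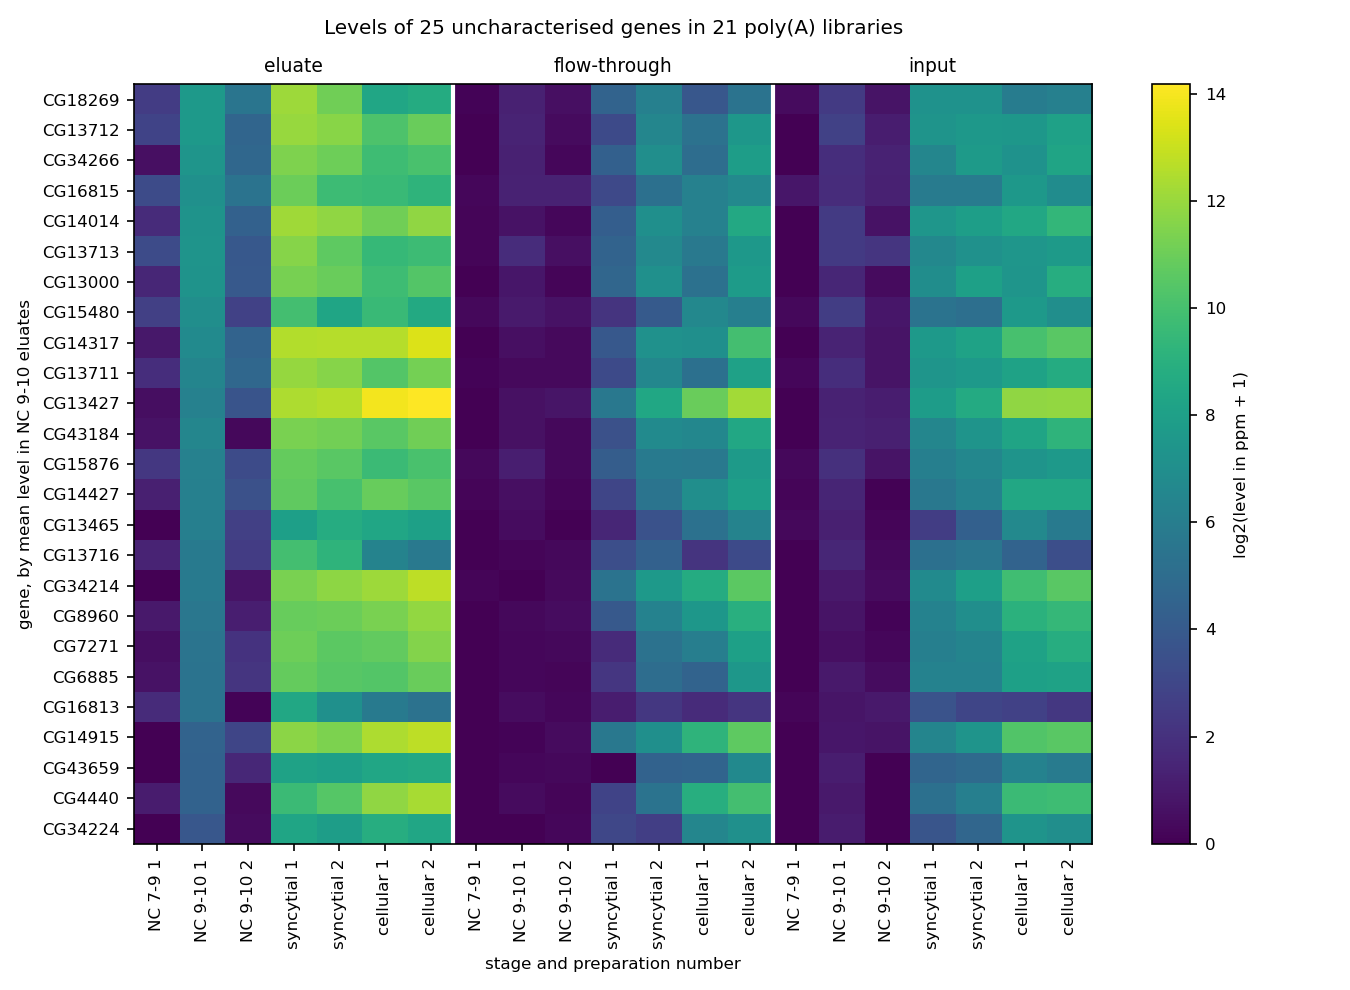
Levels of the 25 genes (rows, ordered by their mean in the NC 9-10 eluates) in the 21 poly(A) libraries, as log2(ppm + 1), with the eluates at the left, the flow-throughs in the middle and the inputs at the right, each in the order of stages. The eluate columns brighten at the syncytial blastoderm, and the 1st of the 2 NC 9-10 eluates is brighter than the 2nd in all 25 rows.

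At NC 7-9, the earliest stage, 13 of the 25 genes reached 1 ppm in the eluate and 4 reached 5 ppm, while 17 were listed at 0 in the input. The 4 were CG13713 at 8.45 ppm, CG16815 at 8.36 ppm, CG13712 at 6.24 ppm and CG15480 at 5.31 ppm in the eluate. In the input those 4 stood at 0, 0.819, 0 and 0.224 ppm. Counts behind the eluate values were small, an estimated 20 reads for CG13713, 31 for CG16815, 22 for CG13712 and 18 for CG15480. CG13465, CG34214, CG14915, CG43659 and CG34224 were listed at 0 in this eluate. With 1 library a fraction there is no replicate at this stage, and since the input level was part of the choice of genes no test was made.

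At NC 9-10 the eluates chose the genes, so their levels are a description. The first eluate held between 13.5 ppm (CG34224) and 205 ppm (CG13712), with a median of 75.0 ppm. The second held between 0.0817 ppm (CG16813) and 44.3 ppm (CG18269), with a median of 6.85 ppm. All 25 genes were higher in the first eluate than in the second, by 3.21-fold (CG14915) to 496-fold (CG16813) with a median of 10.8-fold. The other 49 genes that passed the same numbers had medians of 35.8 ppm in the first and 6.30 ppm in the second eluate. The second library was the deeper, at an estimated 27.8 M reads against 6.19 M. CG16813 had an estimated 92 reads in the first eluate but 1 in the second, and CG43184 had 73 and 1. CG4440 had 28 and 2 reads, CG34224 16 and 2, and CG34214 75 and 5 in that order. These 5 genes therefore rest largely on 1 library here. The inputs of the same preparations had medians of 1.65 and 0.647 ppm.

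Both NC 9-10 eluates lay above both inputs in 20 of the 25 genes and in 10.6% of all genes tested, a count that the choice by these eluates largely fixed and that supports nothing further. CG18269, the highest by its mean, had 198 and 44.3 ppm in the eluates, against 4.21 and 0.679 ppm in the inputs. CG14317 had 107 and 21.5 ppm in the eluates, against 1.65 and 0.697 ppm in the inputs. In both genes the lower eluate still exceeded the higher input.

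Choosing by the first NC 9-10 eluate alone gave 29 genes, including all 25, and by the second alone 24, of which 16 were shared. Requiring 5 ppm in each eluate left 16. On the scale of the choice the lowest genes inside were CG34224 at a mean of 7.40 ppm, CG4440 at 11.2 ppm and CG43659 at 12.7 ppm, and the nearest outside were CG31469 at 4.06 ppm, CG42762 at 3.94 ppm and CG18336 at 3.66 ppm. On the side of the NC 7-9 input, CG16815 at 0.992 ppm, CG18269 at 0.388 ppm and CG13465 at 0.296 ppm lay just inside. CG43163 at 1.03 ppm, CG15382 at 1.72 ppm and CG12290 at 1.96 ppm lay just outside, and of these CG15382 had a mean of 96.3 ppm in the NC 9-10 eluates.

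At the syncytial blastoderm, whose libraries played no part in the choice, the genes were high in the eluates and low in the inputs. Both eluates lay above both inputs in 25 of 25 genes, as they did in 27% of all genes tested. The genes together made up 4.76% and 4.60% of the summed RPKM of the eluates, against 0.251% and 0.401% of the inputs. CG14915 had 3334 and 2611 ppm in the eluates, against 87.3 and 159 ppm in the inputs, a log2 difference of 4.63 ± 0.58 (SE; adjusted p = 0.000225, limma over all genes tested with Benjamini-Hochberg adjustment). CG14317 had the highest level in the first of these eluates, with 6045 and 6208 ppm, against 205 and 289 ppm in the inputs, a log2 difference of 4.65 ± 1.06 (limma, adjusted p = 0.0112). The eluate and input libraries did not overlap in either gene.

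By that test 21 of the 25 genes were higher in the syncytial eluate and none lower, against 11.2% of 8771 genes higher and 0.695% lower. Their median log2 difference was 4.33, and that of all genes tested was 0.08. The differences kept to a narrow range, from 3.31 for CG43659 to 4.92 for CG13465, which had 258 and 429 ppm in the eluates, against 4.85 and 19.7 ppm in the inputs. CG7271 (4.57 ± 1.14, limma, adjusted p = 0.020) and CG16813 (4.54 ± 1.19, limma, adjusted p = 0.0259) came next among the called genes after CG13465, CG14317 and CG14915. The other 4 missed the threshold: CG43184 at 4.33 ± 1.54, CG43659 at 3.31 ± 1.23, CG13000 at 3.58 ± 1.11 and CG34214 at 4.16 ± 1.26, with adjusted p from 0.0544 to 0.129 (limma). Their SE drew on the spread within all groups of the fit, among them the eluates that chose the genes. With the 12 blastoderm libraries alone 23 of the 25 were called, against 8.72% of all genes. CG43184 (limma, adjusted p = 0.0246) and CG34214 (limma, adjusted p = 0.0126) then passed. CG13000 (limma, adjusted p = 0.0571) and CG43659 (limma, adjusted p = 0.167) still missed. With the preparation as a block all 25 were called, these 4 at adjusted p from 0.00454 to 0.0494 (limma), when 15.1% of all genes were called higher. The count was 11 without the 250 mM eluate (12.3% of all genes), 14 without the 50 mM eluate (11.7%), 4 without the 250 mM input (7.17%) and 9 without the 50 mM input (7.49%).

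**Figure D2:**
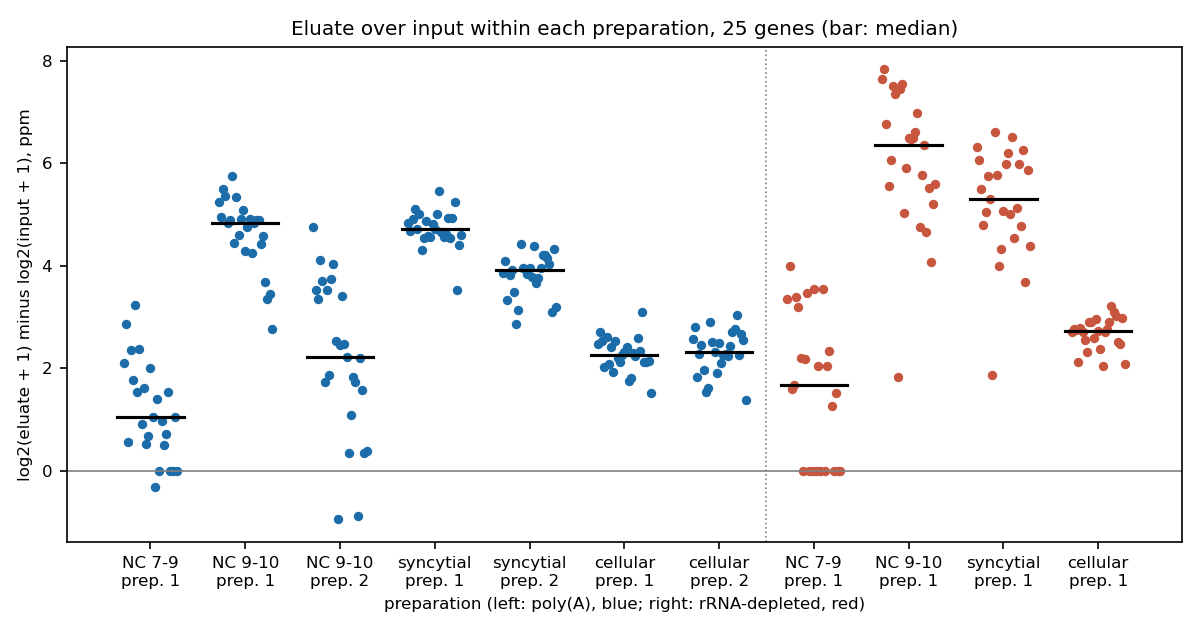
Log2 of eluate over input (each level plus 1 ppm) within each preparation, 1 point a gene and a bar at the median, for 7 poly(A) preparations (blue) and 4 rRNA-depleted preparations (red). Both syncytial poly(A) preparations form tight bands with medians of 4.72 and 3.91, the cellular ones have medians of 2.26 and 2.31, and the 2 NC 9-10 preparations differ.

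At the cellular blastoderm the gap between eluate and input was smaller. Both eluates again lay above both inputs in 25 of 25 genes, against 49.7% of all genes tested. The median log2 difference was 2.27, against 0.57 over all genes tested, and the range was 1.45 (CG34224) to 3.07 (CG16813). CG16813 was low here, with 56.8 and 38.8 ppm in the eluates, against 5.74 and 3.83 ppm in the inputs (3.07 ± 1.19, limma, adjusted p = 0.0446). CG13427 was the highest of the 25, with 15666 and 18407 ppm in the eluates, against 3613 and 3703 ppm in the inputs (2.21 ± 0.85, limma, adjusted p = 0.0424). Neither gene's eluates overlapped its inputs.

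The test called 8 of the 25 genes higher in the cellular eluate and none lower, when 39% of all genes were called higher and 17.3% lower. Besides CG16813 and CG13427 they were CG14317 (2.72 ± 1.06), CG18269 (2.52 ± 0.79), CG15876 (2.41 ± 0.90), CG14427 (2.25 ± 0.87), CG14915 (2.18 ± 0.58) and CG16815 (2.15 ± 0.67). With the preparation as a block 20 of the 25 were called higher, against 47.1% of all genes, and with the 12 blastoderm libraries alone 14, against 35.6%. Leaving out either eluate or either input left 1 or 2 of the 25 called, against 30.3% to 34.7% of all genes.

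The gap between eluate and input was smaller at the cellular stage in all 25 genes. The difference of the log2 eluate over input values, cellular minus syncytial, was below 0 for each gene (24 of 25 without any scaling of libraries), from -2.92 (CG13465) to -0.92 (CG43659), with a median of -1.94, against 0.17 for all genes tested. No single gene passed the test, when 4.28% of all genes were called lower and 12.8% higher. The lowest adjusted p was 0.0603 (limma) for CG14915, at -2.45 ± 0.82, and an unadjusted p under 0.05 was reached by 2 genes. With the preparation as a block 2 of the 25 were called lower, CG14915 (limma, adjusted p = 0.0162) and CG13465 (limma, adjusted p = 0.0319), when 15.8% of all genes were.

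Labelled and total RNA of these genes had different profiles over the stages. In bulk embryos, fewer transcribing nuclei and less RNA from each cannot be told apart. In the eluates the mean level was highest at the syncytial blastoderm in 14 genes and at the cellular blastoderm in 11. In the inputs it was highest at the syncytial blastoderm in 3 genes, CG18269, CG13716 and CG16813, and at the cellular blastoderm in 22. In 11 genes the eluate maximum was at the syncytial and the input maximum at the cellular stage.

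CG13716 fell most in the eluate, to 78.8 and 51.3 ppm at the cellular stage, against 969 and 588 ppm at the syncytial stage, a log2 difference of -3.55 ± 0.86 (limma, adjusted p = 0.00532). CG18269 followed, with 336 and 422 ppm at the cellular stage, against 4305 and 2162 ppm at the syncytial stage (-3.02 ± 0.79, limma, adjusted p = 0.00822). The stages did not overlap in either gene. These were the 2 genes that the test called lower in the cellular eluate, against 13.9% of all genes, and none was called higher, against 31.7%. Without the 250 mM eluate of either stage the call of CG18269 was lost, while that of CG13716 held in each leave-one-out fit (limma, adjusted p 0.0132 to 0.0398). CG16813 came next with 56.8 and 38.8 ppm in the cellular eluates, against 367 and 139 ppm in the syncytial eluates (-2.24 ± 1.19, limma, adjusted p = 0.148).

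Other genes had higher values in the cellular eluates. CG4440 had 3629 and 5121 ppm in the cellular eluates, against 799 and 1368 ppm in the syncytial eluates, a log2 difference of 2.04 ± 1.08 that missed the threshold (limma, adjusted p = 0.147). CG13427 had 15666 and 18407 ppm in the cellular eluates, against 5458 and 6255 ppm in the syncytial eluates (1.54 ± 0.85, limma, adjusted p = 0.163). The stages did not overlap in these 2 genes, as in 7 of the 25 in all with the cellular stage higher (43.6% of all genes) and 12 with it lower (21.7% of all genes). The median fold over the 25 genes was 0.870, and the range was 0.0836 to 4.04.

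In the inputs most of the genes had higher values at the cellular stage. CG4440 had 822 and 870 ppm in the cellular inputs, against 37.0 and 67.2 ppm in the syncytial inputs, a log2 difference of 4.06 ± 1.08 (limma, adjusted p = 0.0145). CG14915 had 1269 and 1475 ppm in the cellular inputs, against 87.3 and 159 ppm in the syncytial inputs (3.53 ± 0.58, limma, adjusted p = 0.000846). The cellular inputs were far above the syncytial ones in both genes, with no overlap.

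CG13427 (3.57 ± 0.85), CG34224 (2.95 ± 0.83) and CG14427 (2.49 ± 0.87) were also called, which made 5 of 25 higher and none lower, against 16.8% and 13.8% of all genes. The median log2 difference was 1.84, against 0.32 for all genes tested. The cellular inputs lay above the syncytial ones without overlap in 19 genes (44.5% of all genes) and below in the 3 genes named above (25.2%). CG13716 had 21.9 and 9.74 ppm in the cellular inputs, against 37.3 and 45.7 ppm in the syncytial inputs (-1.43 ± 0.86, limma, adjusted p = 0.231). With the 12 blastoderm libraries alone 8 of the 25 were called higher, against 12.3% of all genes. The count was 1 without the 250 mM syncytial input (8.14% of all genes), 4 without the 50 mM syncytial input (9.5%), and 2 without the 250 mM (9.66%) or the 50 mM cellular input (11.8%).

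**Figure D3:**
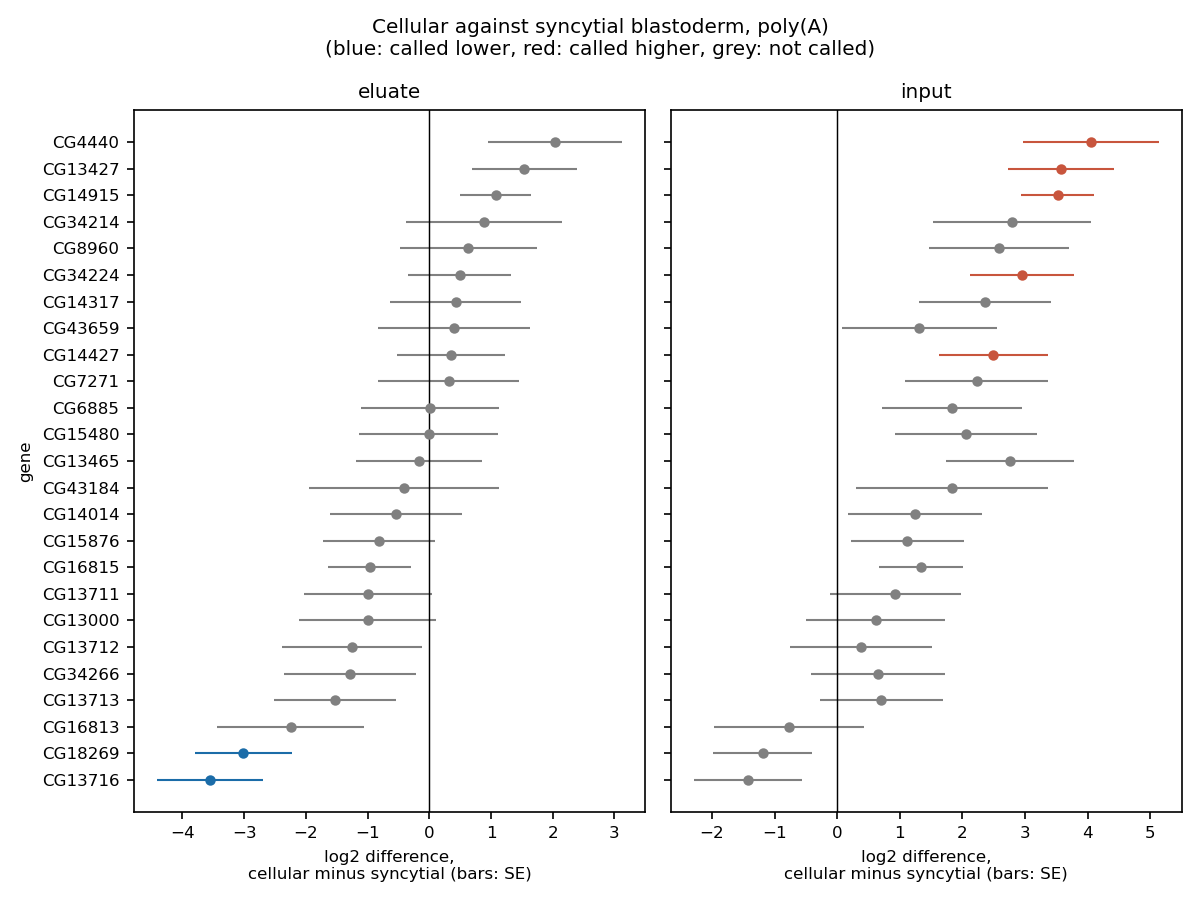
Log2 difference between the cellular and the syncytial blastoderm (cellular minus syncytial, limma, bars are SE) of the 25 genes in poly(A) eluates (left) and inputs (right), in the order of the eluate difference. The eluate differences lie on both sides of 0, while 22 of the 25 input differences lie above 0 (21 with libraries scaled to their totals, 18 without any scaling); blue and red points passed adjusted p 0.05.

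Position went along with the stage of highest labelled level, a pattern seen after the values and given with no test. All 11 genes that lie in the 3 neighbouring sets on 2L and 3L, whose starts follow each other within 50 kb, had their eluate maximum at the syncytial blastoderm. Among the 14 other genes it was 3. Within the 3L set the fold between the cellular and the syncytial eluate was 0.0836 for CG13716, 0.521 for CG13711 and 0.573 for CG15876. In the set of 3 on 2L, CG15480 had 774 and 388 ppm in the cellular eluates, against 959 and 317 ppm in the syncytial eluates, so that its stages overlapped. Its neighbours CG16815 and CG16813 were lower in both cellular eluates than in either syncytial one.

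The 4 last genes of the 3L set, CG15876, CG13713, CG13712 and CG13711, all had their highest mean in the syncytial eluates. CG13712 had 6.24 ppm in the NC 7-9 eluate, 205 and 23.9 ppm at NC 9-10, 4056 and 3164 ppm at the syncytial and 1169 and 1935 ppm at the cellular stage. CG13711 had 2.58 ppm in the NC 7-9 eluate, 86.3 and 25.8 ppm at NC 9-10, 3954 and 3093 ppm at the syncytial and 1307 and 2366 ppm at the cellular stage. In both genes each syncytial eluate exceeded each cellular eluate. CG13713 and CG15876, whose starts lie 2756 bases apart, had 3125 and 1602 ppm and 1838 and 1480 ppm in the syncytial eluates. CG34266 was listed at 0 in the NC 7-9 input and had 0.481 ppm in the NC 7-9 eluate, on 1 estimated read. At NC 9-10 it had 164 and 25.1 ppm in the eluates, the third highest mean of the 25 genes.

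The pair on 2L had high syncytial levels that differed later. CG14014 had 4583 and 3659 ppm in the syncytial eluates, and CG18269 had 4305 and 2162 ppm there. In the cellular eluates CG14014 still had 2184 and 3618 ppm, several times the values of CG18269 given above, and its log2 difference from the syncytial stage was -0.54 ± 1.07 (limma, adjusted p = 0.71).

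Among the genes that lie alone, several had overlapping eluate values at the 2 blastoderm stages. CG6885 had 1311 and 1975 ppm in the cellular eluates, against 1788 and 1426 ppm in the syncytial eluates. CG7271 had 1707 and 2953 ppm in the cellular eluates, against 2096 and 1553 ppm in the syncytial eluates. The stages overlapped in both genes. CG8960 had 2518 and 3694 ppm in the cellular eluates, against 1893 and 2035 ppm in the syncytial eluates, without overlap (0.64 ± 1.12, limma, adjusted p = 0.673). The lowest genes in the cellular eluates beside CG16813, CG13716 and CG18269 were CG13465 with 335 and 263 ppm, CG43659 with 336 and 374 ppm and CG34224 with 458 and 330 ppm. Their inputs at that stage were 99.2 and 54.2 ppm, 76.1 and 58.2 ppm, and 159 and 127 ppm.

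Levels of these genes in the flow-through were mostly below those in the input at both blastoderm stages. Both flow-throughs lay below both inputs in 15 genes at the syncytial stage (14% of all genes tested) and in 11 at the cellular stage (25.3%). For all 25 genes the log2 difference of flow-through and input, averaged over the stages, was below 0, with a median of -1.40, against -0.06 for all genes tested. CG6885 lay lowest at -2.35 ± 0.79 (limma, adjusted p = 0.301) and CG14915 highest at -0.51 ± 0.41 (limma, adjusted p = 0.825). None of the 25 was called, nor was any of the 8771 genes tested in either direction (0%). With the preparation as a block still none of the 25 was called, when 13 of all genes were called higher and 123 lower. An unadjusted p under 0.05 was reached by 10 of the 25 genes, all lower, and by 748 genes lower and 146 higher over the whole set.

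How much stayed unbound differed between the preparations with 50 and 250 mM 5-EU. At the syncytial stage the median gene of the 25 kept 55.6% of its input level in the flow-through at 50 mM and 14.5% at 250 mM. At the cellular stage it kept 74.3% at 50 mM and 30.6% at 250 mM. Over all genes at 1 ppm or more in the input the medians lay between 96.6% and 98.4% in these 4 preparations. The share was higher at 50 mM in 24 of 25 genes at the syncytial stage and in 25 of 25 at the cellular stage.

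CG14317 stood at 49.6% at 50 mM and 6.73% at 250 mM at the syncytial stage, and at 66.0% and 12.4% in that order at the cellular stage. CG34224 was the exception, with 21.04% at 50 mM and 57.2% at 250 mM at the syncytial stage. The syncytial flow-through at 250 mM is the shallowest library, at 1.93 M estimated reads, and 12 of the 25 genes had 5 reads or fewer in it. Dose and preparation cannot be told apart, since each dose was used in 1 preparation a stage, and no test was made. The rRNA-depleted preparations, all at 250 mM, had medians of 13.8% at the syncytial and 32.9% at the cellular stage.

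**Figure D4:**
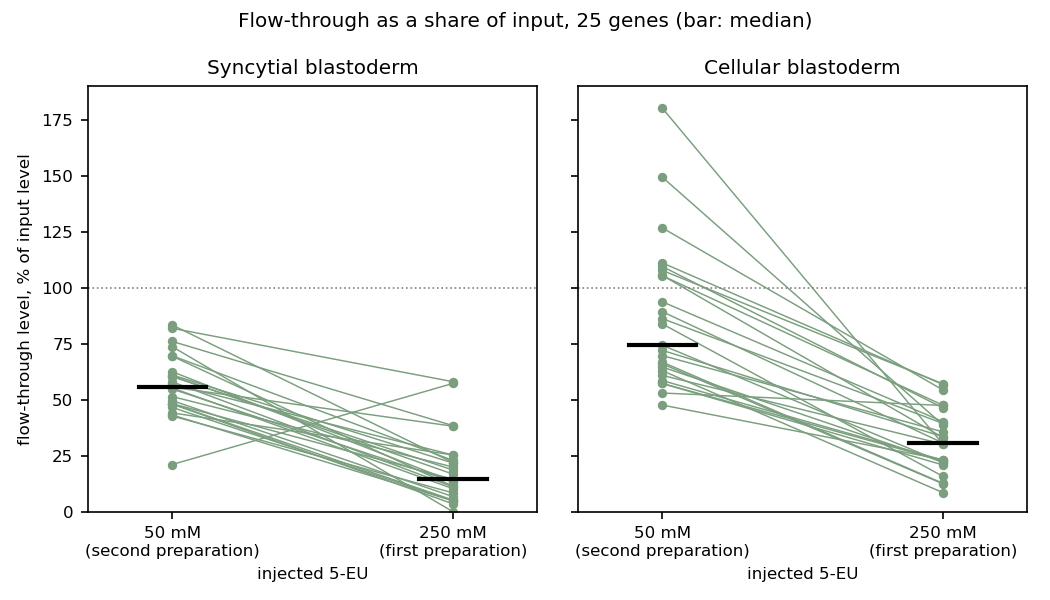
Flow-through level as a percentage of the input level in the same preparation for the 25 genes, 1 line a gene and a bar at the median, at 50 mM (left of each panel) and 250 mM 5-EU (right), in the syncytial and cellular blastoderm. The medians are 55.6% and 14.5% in the syncytial panel and 74.3% and 30.6% in the cellular panel; 1 line, CG34224 in the syncytial panel, runs upward.

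The rRNA-depleted libraries, which do not select for a poly(A) tail, showed the same genes in the eluates. At NC 7-9, 16 of the 25 reached 1 ppm in the rRNA-depleted eluate and 9 were listed at 0, with CG13712 the highest at 22.0 ppm. The lowest and highest levels were 3.93 ppm (CG15480) and 511 ppm (CG13712) at NC 9-10, 164 ppm (CG15480) and 21730 ppm (CG14317) at the syncytial, and 82.8 ppm (CG16813) and 16599 ppm (CG14915) at the cellular blastoderm. The genes together made up 8.56% of the summed RPKM in the syncytial and 7.44% in the cellular rRNA-depleted eluate.

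Eluate exceeded input in all 25 genes at NC 9-10, the syncytial and the cellular stage, as it did in 43.8%, 44.9% and 59.5% of all genes at 1 ppm or more in the input at those stages, with 1 library a fraction. The NC 9-10 count is only a description, since that preparation has the title of the first one used in the choice. In the fit over the syncytial and cellular libraries the median log2 difference was 4.12, against 0.12 for all genes tested, and the range was 2.09 (CG15480) to 4.76 (CG14317). The stages served as the replicates there, so its p-values measure how far the differences between fractions vary between the stages. The median log2 of eluate over input was 5.30 at the syncytial and 2.72 at the cellular stage. CG14317 had 21730 ppm in the syncytial and 15249 ppm in the cellular eluate, against 221 and 2035 ppm in the inputs of those stages (4.76 ± 1.03, limma, adjusted p = 0.117). None of the 25 passed the threshold, nor did any of the 8143 genes tested (0%). An unadjusted p under 0.05 was reached by all 25 of these genes, higher, and by 1166 genes higher and 473 lower over the whole set. Without the syncytial eluate 24 of the 25 were called (34.2% of all genes), without the cellular eluate 25 (13.3%), without the cellular input 18 (1.09%) and without the syncytial input 0 (0%).

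Set side by side, the eluates of the 2 kinds of library differed by gene. The tables were normalized separately, so the values have no test. The log2 difference, rRNA-depleted minus poly(A), had medians of 1.03, 0.75, 0.94 and 0.88 over the 4 stages in order. CG15480 lay lowest at every stage, at -2.66, -4.70, -2.54 and -2.20, and the next lowest gene lay at -1.40, -0.76, -0.35 and -0.10.

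CG15480 had 3.93 ppm in the rRNA-depleted and 127 ppm in the poly(A) eluate at NC 9-10, resting on 3 and 210 estimated reads. At the syncytial stage its eluates held 164 ppm in the rRNA-depleted and 959 ppm in the poly(A) library, while its inputs held 44.4 and 40.5 ppm in that order. At the cellular stage the eluates held 168 and 774 ppm and the inputs 33.0 and 204 ppm in the same order. The gap was thus present in eluates of all stages but not in the syncytial inputs. At the other end, CG34214, a gene with 1 intron, had 13.9 ppm in the rRNA-depleted NC 7-9 eluate and was listed at 0 in the poly(A) one, and had 11797 and 2567 ppm in that order at the syncytial stage.

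**Figure D5:**
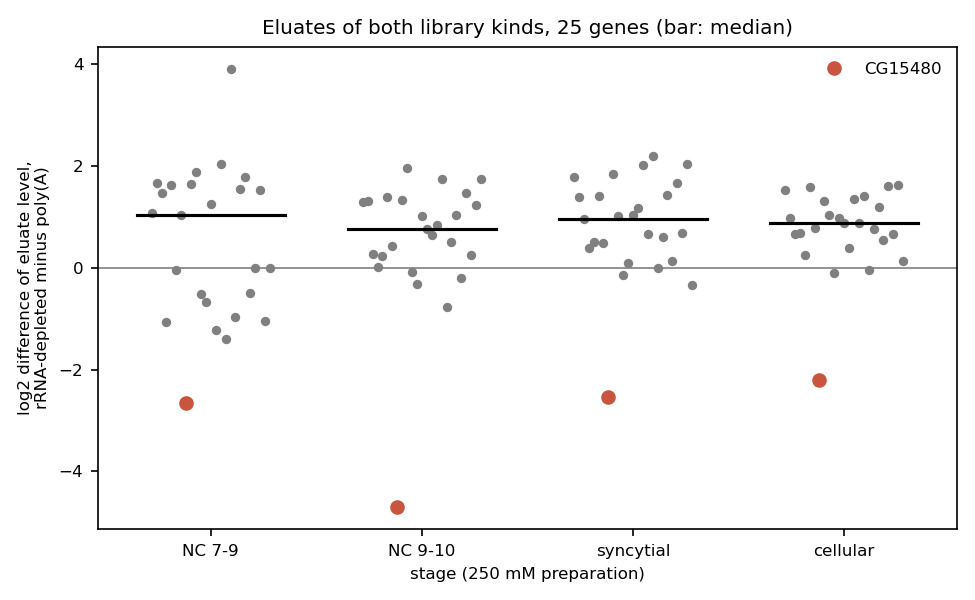
Log2 difference of the eluate level, rRNA-depleted minus poly(A) (each plus 1 ppm, 250 mM preparations), for the 25 genes at 4 stages, 1 point a gene and a bar at the median. Most genes lie above 0 with medians of 0.75 to 1.03, and CG15480 (red) is the lowest at each stage.

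The other 49 genes that passed the same numbers gave similar values, of which 47 passed the filter on low levels. Their median log2 differences of eluate and input were 4.31 at the syncytial and 2.38 at the cellular stage, beside 4.33 and 2.27 for the CG genes. Between the stages, cellular minus syncytial, their medians were -0.01 in eluates, 2.04 in inputs and -1.96 in enrichment. The 2 lists were set apart by the form of the symbol alone, and no difference between them was tested.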

How the data were processed

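Per the labels' protocols, embryos injected with 5-EU were staged, RNA was pulled down, and libraries were made with the SMARTer Stranded kit. The submitters' processing notes name STAR, HTSeq and dm6 and give no versions; which annotation, filters, strand setting and scaling were used is not given in the sources used here. The authors deposited RPKM values for 21 poly(A) and 12 rRNA-depleted libraries. The steps between low values show that each is a whole read number divided by gene length, multiplied by a constant of its library that is unknown, with 1 added. Reads were estimated from those steps: of 247 values of the 25 genes under 20 reads, 240 (97.2%) lay within 0.05 of a whole number.

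After subtraction of this 1, libraries were brought to a total of 1000000 and then divided by median-of-ratios size factors (0.632 to 1.33). No count test was run. A gene was tested where 2 or more libraries of its table had it at 1 ppm or above (poly(A), 8771 genes; rRNA-depleted, 8143 genes); all 25 genes passed both filters. limma 3.58.1 (R 4.3.3) was fitted to log2(value + 1) with a mean trend, so that folds of low genes are understated, and adjusted by Benjamini-Hochberg at 0.05. The poly(A) fit took in all 21 libraries and gave each combination of stage and fraction its own mean. The rRNA-depleted fit used the 6 blastoderm libraries with a stage term. The procedure was tested on simulated data.

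The fractions of a preparation pair by their titles: deviations from group means correlated at 0.508 to 0.928 in each pair of fractions. Symbols were matched to BDGP6.54 (release 115), 16330 of 16407. Genes and lists were chosen with earlier results of these data known. Named are the 20 genes highest in the NC 9-10 eluates, those at 1 or more in the NC 7-9 eluate, the 5 largest called differences in each direction, genes nearest the thresholds, neighbours within 10 kb, renamed genes and genes never called. Sequences and promoter motifs were not analysed here.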

Additional observations from a re-analysis of the deposited data

How the results depend on the processing

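Scaling libraries to their totals alone moved the median of all genes by over 0.1 on the log2 scale, to -0.28 in the syncytial eluate against input, and 25 of the 25 genes still lay above 0 in each eluate against input. The split of all genes called higher and lower became 866 and 398 in the syncytial eluate against input (981 and 61 as reported), 709 and 1762 in the input between stages (1473 and 1213) and 1306 and 96 in the enrichment between stages (1125 and 375). Without any scaling the median gene stood at -3.72, -1.85 and -4.46 in the syncytial, cellular and rRNA-depleted eluates against input, and 22, 3 and 1 of the 25 genes lay above 0 there. None of the 25 genes was then called in the syncytial (0) or cellular (0) eluate and 2 in the input between stages. Of all 8771 genes 78, 76 and 801 were called higher in these 3 comparisons in that order. Among the genes called in the fit as reported, the log2 value reversed for CG15480 (-0.046) at the syncytial stage. At the cellular stage it reversed for the called genes CG18269 (-0.15), CG16815 (-0.52), CG13427 (-0.47), CG15876 (-0.27), CG14427 (-0.43) and CG14915 (-0.50). The other values below 0 at these stages belonged to genes called in neither fit. Relative to the median gene the 25 still stood 4.15 and 1.44 higher.

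A pseudocount of 0.1 left 16 genes called in the syncytial eluate, against 11.1% of all genes. It left 3 in the cellular eluate, against 2830 of all 8771 genes, and 2 in the input between stages, against 1550. No filter on low values left 16 in the syncytial eluate, against 7.29% of all genes. It left 3 in the cellular eluate, where the fit as reported called 39% of all genes higher. The 12 blastoderm libraries alone gave 23 in the syncytial eluate, 14 in the cellular eluate and 8 in the input between stages. They gave 3 lower in the eluate between stages and 1 lower in enrichment. The fit as reported called 13.9% and 4.28% of all genes lower there, so these counts are not set apart from all genes. With the preparation as a replicate block 20 were called in the cellular eluate and 2 lower in enrichment. For flow-through against input that fit called none of the 25, but 13 of all genes higher and 123 lower. Leaving out 1 library at a time gave 4 to 14 genes in the syncytial eluate, 1 to 2 in the cellular eluate, 1 to 2 lower in the eluate between stages, 1 to 4 in the input between stages and 0 to 25 in the rRNA-depleted eluates; where a group was left with 1 library, that library was taken to vary like the others. An eluate minimum of 2 ppm in the choice gave 45 genes and 5 ppm in both eluates 16; the choices by 1 eluate given above were added after seeing the data. Of 975 values of single genes under an alternative that left out no library, 883 kept their side of the threshold, 53 lost a call and 32 gained one. Another 7 changed sign in a gene that was called in 1 of the fits. Values that changed sign in genes called in neither fit are counted among the 883. The cause of these changes was not tested.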
